A study of Homo sapiens with 4 samples.

Results

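Ubiquitin-conjugating enzymes of the UBE2 family and ubiquitin-specific proteases of the USP family were examined in Jurkat cells, a human leukemia line of T lymphocyte origin. Members were the rows of the deposited table whose gene symbol begins with UBE2 and a letter, or consists of USP, a number and at most 1 letter. The interferon-induced pair UBE2L6 and USP18 was left out by the rule. This gave 83 gene symbols in 91 rows, of 15175 symbols in 16151 rows, with 37 symbols in 40 rows for UBE2 and 46 symbols in 51 rows for USP. Measured were 3' ends of polyadenylated RNA, by the multiplexed method MAPS, in 1 library labelled Control (a control hairpin, from the design text) and 3 labelled SLEAR shRNA-1, -2 and -3. All cells carried a hairpin from the lentiviral vector pGreenPuro. Whether 1 to 3 number different hairpins or repeats, and whether cultures were separate, is not given in the labels. The spread that a p-value measures here is that between these libraries and may be technical. No row carried the name SLEAR, the target that the labels give, so its level is not analysed here. In bulk libraries, fewer cells of a type and less RNA per cell cannot be told apart.

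Ubiquitin is a small protein that is attached to other proteins in a relay. An activating enzyme (E1) charges a conjugating enzyme (E2, the UBE2 family), which works with a ligase (E3) to place ubiquitin on a target and to build chains. Chains of one linkage send proteins to the proteasome, chains of another act in signalling and DNA repair, and a few E2 enzymes carry the related modifiers SUMO or NEDD8 instead. Deubiquitinases, of which the USP family is the largest, remove ubiquitin again and so set how long the mark lasts. In T cells, both kinds of enzyme act on antigen receptor signalling, on NF-kB and on the cell cycle.

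Values were RPM as deposited (read numbers scaled to the library total), and since each read marks the 3' end of a transcript they were not divided by transcript length. The depth, estimated from the smallest steps in the table, was 8384882 reads in Control, against 7048619, 7524256 and 4814163 in the SLEAR shRNA libraries in order. Of 10 T cell genes listed, CD3D, CD3E, CD247 and LCK were at 454 RPM or above in every library, and CD3G was at 0.239 RPM or below. CD2 and LAT were at 44 RPM or above. TRAT1 stood at 44.5 RPM in Control, against 42.6, 32.4 and 8.72 RPM with SLEAR shRNA, and CD28 at 7.87 against 1.28, 2.92 and 0 RPM. CD7 went the other way, at 2.86 RPM in Control against 8.51, 8.90 and 16.2 RPM. The myeloid markers CD14 and LYZ were at 1.91 RPM or below and ITGAM at 0 throughout, the epithelial KRT8 was at 3.19 RPM or below and KRT18 at 0 throughout, and the fibroblast marker COL1A1 was at 2.15 RPM or below. CD79A, a B cell marker, stood at 12.05 RPM in Control, against 20.7, 18.3 and 21.6 RPM with SLEAR shRNA, and CD79B at 0 against 1.28, 1.33 and 1.45 RPM. The part of other cell types in any result was not tested. SLEAR shRNA-3 stood apart: the Pearson correlation of log2 values across rows was 0.977 between SLEAR shRNA-1 and -2 but 0.883 and 0.886 between these and SLEAR shRNA-3. It listed 25.7% of tested rows at 0, among them 15 of the 73 member rows that entered the test.

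A row entered the test if any library held 1 RPM or more, which 30 UBE2 and 43 USP rows did. The description below rests mainly on the 15 UBE2 and 19 USP rows with a mean log2(RPM + 1) of at least 4 over all 4 libraries, where none was at 0. SLEAR shRNA was compared with Control by limma-trend on log2(RPM + 1) over all 12350 rows that entered, with p-values adjusted by Benjamini-Hochberg and called under 0.05. The 1 Control library was assumed to vary like the 3 SLEAR shRNA libraries.

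Promoters are printed for 4 named members, as examples: UBE2S, the most abundant row of either family, UBE2T, an E2 that lay below Control in every SLEAR shRNA library, and USP25 and USP34, USP members that did the same. USP37, with a larger difference than these USP members, had no promoter in the source used. Each printed promoter runs from 250 bases before to 50 bases after the gene's start, 5′ to 3′ on the gene's strand, from RefSeq on GRCh38.p14. Capitals mark each CCAAT box on either strand. They also mark every TTTGAA (the cell cycle homology region of genes of late cell cycle phases) on either strand, and a match on the other strand appears as its reverse complement. UBE2S is at chr19:55407739-55408038, UBE2T at chr1:202341887-202342186 and USP34 at chr2:61471038-61471337, all on the minus strand, and USP25 is at chr21:15729732-15730031 on the plus strand.
UBE2S: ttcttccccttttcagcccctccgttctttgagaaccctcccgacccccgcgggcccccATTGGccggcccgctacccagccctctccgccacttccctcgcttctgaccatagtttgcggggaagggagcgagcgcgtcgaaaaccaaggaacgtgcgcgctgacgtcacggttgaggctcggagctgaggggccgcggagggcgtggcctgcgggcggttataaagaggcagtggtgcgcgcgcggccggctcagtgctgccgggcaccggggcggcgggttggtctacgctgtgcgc
UBE2T: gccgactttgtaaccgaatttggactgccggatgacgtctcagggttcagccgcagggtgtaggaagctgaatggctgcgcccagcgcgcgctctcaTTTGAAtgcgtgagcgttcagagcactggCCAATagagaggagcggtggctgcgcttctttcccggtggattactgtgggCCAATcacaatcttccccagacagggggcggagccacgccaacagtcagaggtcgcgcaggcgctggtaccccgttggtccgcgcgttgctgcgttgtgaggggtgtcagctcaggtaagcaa
USP25: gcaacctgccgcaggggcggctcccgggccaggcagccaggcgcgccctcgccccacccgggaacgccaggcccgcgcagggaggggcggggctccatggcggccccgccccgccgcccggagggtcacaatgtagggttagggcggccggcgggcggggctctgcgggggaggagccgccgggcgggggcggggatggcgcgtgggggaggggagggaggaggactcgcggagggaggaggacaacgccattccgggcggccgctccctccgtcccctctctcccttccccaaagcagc
USP34: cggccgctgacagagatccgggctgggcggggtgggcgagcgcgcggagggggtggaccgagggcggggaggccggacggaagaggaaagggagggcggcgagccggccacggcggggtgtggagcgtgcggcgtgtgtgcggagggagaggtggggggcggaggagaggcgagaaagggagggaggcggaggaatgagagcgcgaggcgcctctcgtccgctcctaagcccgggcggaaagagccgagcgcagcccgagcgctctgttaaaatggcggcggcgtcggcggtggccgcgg

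In UBE2T, TTTGAA began at position -153 from the start and CCAAT at positions -124 and -73, and UBE2S held 1 CCAAT box on the other strand, at position -191. Neither motif was in the windows of USP25 and USP34. Over the families, CCAAT was in 8 of 24 UBE2 and 10 of 37 USP promoters found (33.3% and 27.0%), against 34.6% of all 35116 promoters. TTTGAA was in 3 of 24 and 3 of 37 (12.5% and 8.11%), against 15.2% of all. Matches of the 2 motifs did not overlap in the 4 promoters printed, and a match is a description of the sequence only.

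In Control, the UBE2 rows summed to 2392 RPM and the USP rows to 1547 RPM. In SLEAR shRNA-1, -2 and -3 the UBE2 sums were 2674, 2660 and 2586 RPM, all above Control, and the USP sums were 1308, 1280.3 and 1489 RPM, all below it. The ratio of the UBE2 sum to the USP sum was thus 1.55 in Control and 2.04, 2.08 and 1.74 in the SLEAR shRNA libraries. UBE2S alone made 29.3% of the UBE2 sum in Control and 32.1%, 33.3% and 43.6% with SLEAR shRNA. Without UBE2S the ratio was 1.09 in Control and 1.39, 1.39 and 0.979, so that SLEAR shRNA-3 then lay below Control.

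**Figure D1:**
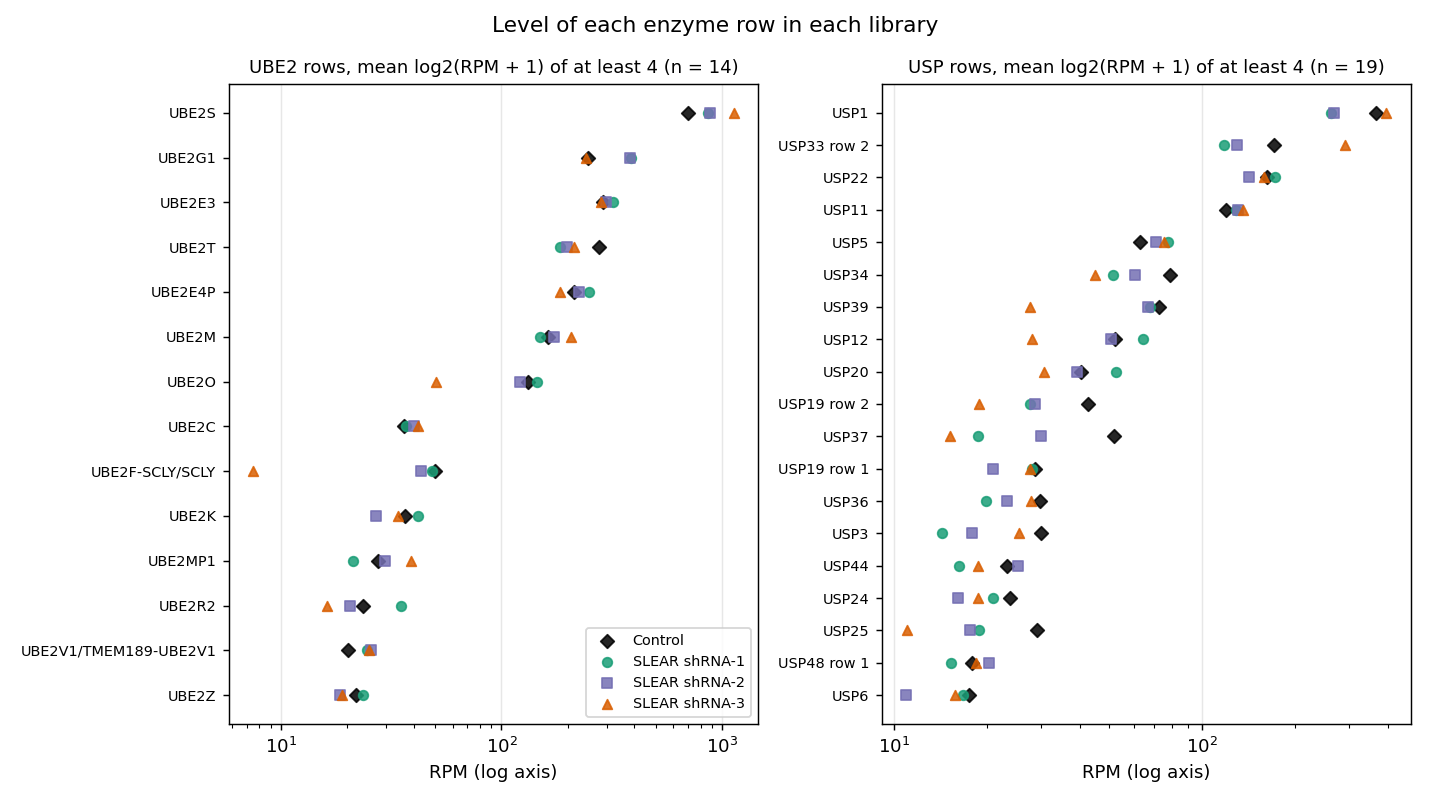
Level in RPM (log axis) of 14 of the 15 UBE2 rows (left) and all 19 USP rows (right) with a mean log2(RPM + 1) of at least 4, with 1 point per library. UBE2S lies at 700.3 RPM or above in every library, and USP1, the highest USP row, between 262 and 397 RPM.

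The families are compared here as a description, with no test. Among rows with a mean log2 of at least 4, 10 of 19 USP rows were lower in all 3 SLEAR shRNA libraries than in Control and 2 were higher, while 2 of 15 UBE2 rows were lower and 3 were higher. Over all 4851 rows at that level, 25.6% were lower in all 3 and 25.0% higher. The median log2 difference of the USP rows from Control was -0.21, -0.38 and -0.24 in SLEAR shRNA-1, -2 and -3, and that of the UBE2 rows 0.13, 0.07 and -0.09, beside 0.02, -0.01 and -0.03 for all rows. The UBE2 median thus stood above the USP median by 0.34, 0.45 and 0.15, a mean of 0.31 ± 0.15 (SD, n = 3). These 3 values share 1 Control library, so they are no independent tests of the difference. In both SLEAR shRNA-1 and -2, 12 of 19 USP rows were lower and 2 higher, and 2 of 15 UBE2 rows were lower and 6 higher, against 39.9% lower and 40.9% higher of all rows at that level.

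With the lower rows included the contrast was weaker. Over the 30 UBE2 and 43 USP rows tested, the medians were 0.03, 0.08 and -0.45 for UBE2 and -0.17, -0.22 and -0.30 for USP, beside -0.02, -0.04 and -0.23 for all rows. The UBE2 median minus the USP median was 0.20, 0.30 and -0.15, a mean of 0.12 ± 0.23 (SD, n = 3), which is within the spread between libraries. Lower in all 3 were 15 of 43 USP rows and 6 of 30 UBE2 rows, against 28.6% of all tested rows, and higher in all 3 were 2 and 5, against 17.8%. In both SLEAR shRNA-1 and -2, 23 USP rows tested were lower and 6 higher, and 6 UBE2 rows were lower and 11 higher, against 41.0% and 35.2% of all tested rows. The sign of the contrast was the opposite in SLEAR shRNA-3, and 10 USP and 5 UBE2 rows tested were at 0 in it.

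**Figure D2:**
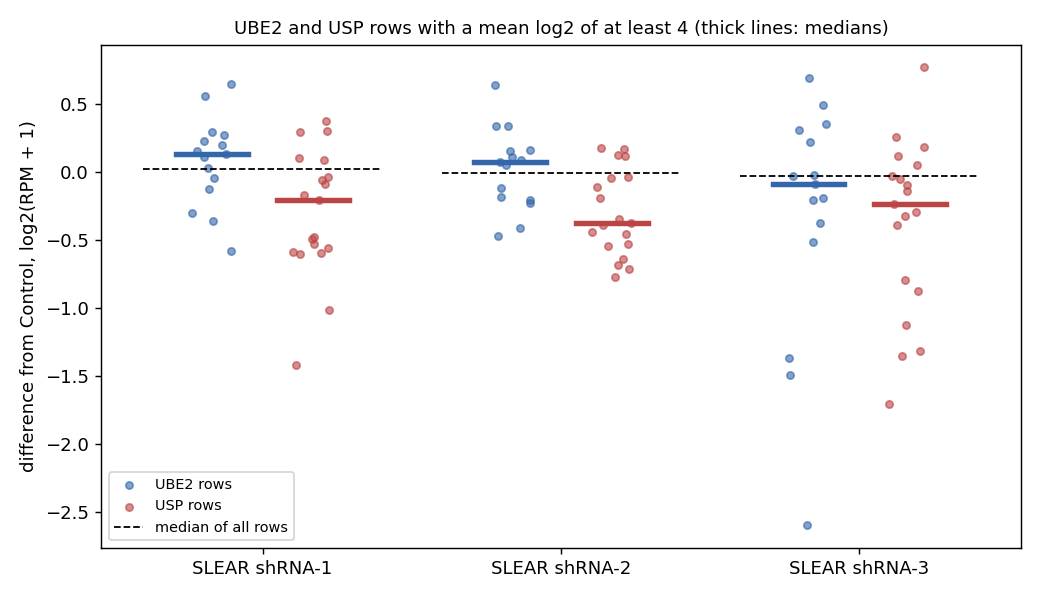
Difference of each SLEAR shRNA library (x axis) from Control in log2(RPM + 1), with 1 point per row for 15 UBE2 and 19 USP rows, thick lines at the family medians and a dashed line at the median of all 4851 rows of that level. The USP median lies below that of all rows in each library, at -0.21, -0.38 and -0.24.

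No single member passed the test over all libraries. By limma-trend, 0 of 73 member rows were higher and 0 lower at an adjusted p under 0.05, as were 0% of all rows in either direction, and the adjusted p of each named member was at least 0.993. At an unadjusted p under 0.05, 0 of 73 member rows were higher and 2 lower (USP37 and USP46), against 92 and 239 of all 12350 rows. Limma-voom on estimated reads also called 0, with 0 member rows higher and 2 lower unadjusted, against 69 and 222 of all rows. USP46, named after its values were seen, was at 2.15 RPM in Control and 0 elsewhere, so it entered the test through Control alone and its p supports nothing. Leaving out SLEAR shRNA-3 alone, limma-trend also called 0 of the 12350 rows, with a smallest adjusted p of 0.368. The unadjusted p was then under 0.05 for 2 of 73 member rows as higher and 8 as lower, against 775 and 893 of all 12350 rows. Without a filter on low values, limma-trend called 1 of 91 member rows, as lower, and 377 of all 16151 rows (1 higher, 376 lower). Otherwise calls came only when 2 choices were changed together. This was a restricted fit that left out SLEAR shRNA-3 and kept only rows with a mean log2 of at least 4. There 1 of 15 UBE2 rows passed as higher, 1 as lower, and 4 of 19 USP rows passed as lower. Over all 4851 rows of that fit, 7.11% passed as higher and 7.26% as lower. That fit pooled the spread completely over rows, so a gap between SLEAR shRNA-1 and -2 in a row did not widen its error.

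Of the E2 enzymes of mitosis, UBE2S extends and UBE2C starts the chains that the anaphase-promoting complex builds on cyclins. UBE2S stood at 700.3 RPM in Control, against 859, 885 and 1128 RPM in SLEAR shRNA-1, -2 and -3. All 3 SLEAR shRNA libraries were above Control, SLEAR shRNA-3 most of all, and the log2 difference was 0.44 ± 0.24 (SE; limma-trend adjusted p = 0.993). UBE2C was at 36.0 RPM against 36.7, 40.1 and 42.0 RPM, also above Control in all 3, but by little.

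UBE2T is the E2 of the Fanconi anemia pathway, which marks FANCD2 and FANCI at DNA crosslinks. It stood at 277 RPM in Control, against 184, 199 and 213 RPM with SLEAR shRNA. The 3 libraries lay close together and all below Control, with a log2 difference of -0.48 ± 0.19 (SE; limma-trend adjusted p = 0.993). In the restricted fit it fell by 0.53 on the log2 scale (limma-trend adjusted p = 0.00827), but it did not pass when SLEAR shRNA-3 alone was left out (adjusted p = 0.368). USP1, which takes the mark off FANCD2 again, was at 367 RPM against 262, 267 and 397 RPM. The groups overlapped, with SLEAR shRNA-1 and -2 below Control and SLEAR shRNA-3 above it. Its log2 difference was -0.27 ± 0.31 (SE; limma-trend adjusted p = 0.993) with all libraries. Without SLEAR shRNA-3 it was -0.47, with an adjusted p of 0.368 over all tested rows and 0.0148 in the restricted fit (limma-trend). The RAD6 enzyme UBE2A, which modifies PCNA and histone H2B, was at 15.0 RPM against 17.02, 18.2 and 7.48 RPM, on both sides of Control.

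Chains linked through lysine 63 are made by UBE2N together with UBE2V1 or UBE2V2, which resemble E2 enzymes but lack the active cysteine. The UBE2V1 row shared with the readthrough transcript TMEM189-UBE2V1 stood at 20.2 RPM in Control, against 24.5, 25.7 and 25.1 RPM. The 3 SLEAR shRNA libraries lay close together and above Control, with a log2 difference of 0.30 ± 0.32 (SE; limma-trend adjusted p = 0.993). The row of UBE2V1 alone was low and went the other way, at 1.43 RPM in Control against 0.426, 1.33 and 0 RPM. UBE2N was at 15.4 RPM against 9.08, 23.0 and 4.57 RPM, with no common direction.

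E2 enzymes of protein quality control were also among the abundant rows. UBE2G1, which serves degradation from the endoplasmic reticulum and cullin ligases, stood at 247 RPM in Control, against 387, 384 and 241 RPM. SLEAR shRNA-1 and -2 were alike and above Control, while SLEAR shRNA-3 was just below it. The log2 difference was 0.41 ± 0.34 (SE; limma-trend adjusted p = 0.993) with all libraries. Without SLEAR shRNA-3 it was 0.64, with an adjusted p of 0.368 over all tested rows and 0.000336 in the restricted fit, where UBE2G1 was the UBE2 row that passed as higher (limma-trend). UBE2O, a large enzyme that acts as E2 and E3 in one and clears orphan proteins, was at 132 RPM against 144, 121 and 50.3 RPM, lowest in SLEAR shRNA-3. UBE2K, UBE2R2 and UBE2Z, at 36.4, 23.6 and 21.8 RPM in Control, each had SLEAR shRNA libraries on both sides of it.

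Among the E2 enzymes of other modifiers, UBE2M, which charges NEDD8 onto cullins, stood at 162 RPM in Control, against 149, 172 and 207 RPM. It had no common direction, and SLEAR shRNA-3 was the highest library. UBE2F, the second NEDD8 enzyme, was at 8.94 RPM against 15.7, 9.17 and 0 RPM, and the row of SCLY and the readthrough UBE2F-SCLY at 50.2 RPM against 48.7, 43.3 and 7.48 RPM. That last row is 1 of the 2 UBE2 rows counted as lower, and its log2 difference was -0.95 ± 1.14 (SE) with and -0.13 without SLEAR shRNA-3.

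The general E2 enzymes were mostly low in this table. UBE2E3 stood at 287 RPM in Control, against 319, 298 and 282 RPM, with little difference between libraries. UBE2D3 was at 17.5 RPM against 12.5, 11.7 and 17.4 RPM, UBE2L3 at 14.1 RPM against 22.6, 13.6 and 6.02 RPM, and UBE2D2 at 0.835 RPM against 0.709, 1.46 and 2.91 RPM. UBE2D3 alone of these lay below Control in all 3, and in SLEAR shRNA-3 by less than 0.1 RPM. The pseudogene row UBE2E4P stood at 74.4%, 78.1%, 75.4% and 65.3% of UBE2E3 in Control and SLEAR shRNA-1, -2 and -3, and UBE2MP1 at 16.9%, 14.2%, 17.2% and 18.8% of UBE2M. Reads of a gene and a near-identical copy may have been divided between rows, so these 4 rows are uncertain.

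**Figure D3:**
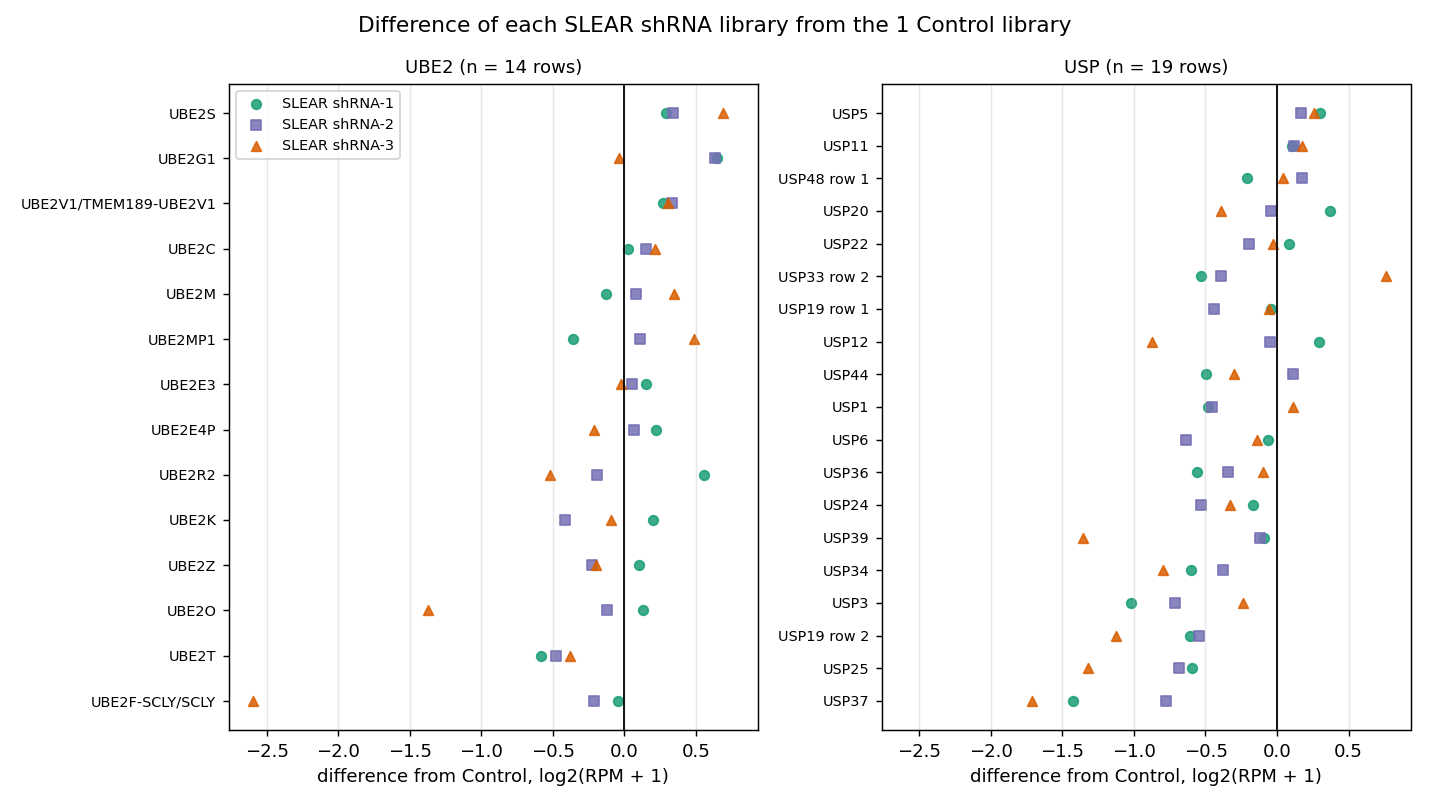
Difference of each SLEAR shRNA library from the 1 Control library in log2(RPM + 1), for 14 of the 15 UBE2 rows (left) and all 19 USP rows (right), ordered by the limma log2 difference. USP37, USP25, USP3, USP34 and the second USP19 row lie left of 0 in all 3 libraries. UBE2S, UBE2C, the UBE2V1 row shared with TMEM189-UBE2V1, USP5 and USP11 lie right of it.

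Among USP rows with a mean log2 of at least 4, the largest difference was in USP37, a protease that stabilises cyclin A and is known from entry into S phase. It stood at 51.9 RPM in Control, against 18.7, 29.9 and 15.2 RPM in SLEAR shRNA-1, -2 and -3, or about 435, 132, 225 and 73 reads. All 3 were well below Control, with a log2 difference of -1.30 ± 0.48 (SE; limma-trend adjusted p = 0.993). Without SLEAR shRNA-3 it was -1.10, with an adjusted p of 0.368 over all tested rows and 0.000277 in the restricted fit (limma-trend).

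Of the proteases of chromatin and DNA repair, USP3, which removes ubiquitin from histone H2A, stood at 30.1 RPM in Control, against 14.3, 17.9 and 25.3 RPM. All 3 were lower, SLEAR shRNA-3 least, and the log2 difference was -0.66 ± 0.46 (SE; limma-trend adjusted p = 0.993). Without that library it was -0.87, with an adjusted p of 0.368 over all tested rows and 0.0261 in the restricted fit (limma-trend). USP22, of the SAGA coactivator, was at 163 RPM against 173, 142 and 159 RPM, around Control. USP7, which stabilises MDM2 and p53, was at 13.5 RPM against 14.5, 11.4 and 11.01 RPM, also around it. USP16, another histone H2A protease, was at 9.90 RPM against 8.65, 8.77 and 0.831 RPM, and its log2 difference was -0.97 ± 1.26 (SE) with and -0.17 without SLEAR shRNA-3. USP11, a regulator of BRCA2, was 1 of 2 USP rows above Control in all 3 libraries, at 119.9 RPM against 129, 131 and 136 RPM.

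USP5, which takes apart free ubiquitin chains, was the other, at 62.97 RPM in Control against 77.6, 70.8 and 75.4 RPM. The SLEAR shRNA libraries did not overlap Control, and the log2 difference was 0.24 ± 0.21 (SE; limma-trend adjusted p = 0.993). USP39, a splicing factor of the USP fold without protease activity, was at 72.2 RPM against 67.8, 66.5 and 27.6 RPM, with a log2 difference of -0.52 ± 0.60 (SE) with and -0.10 without SLEAR shRNA-3. USP36, of the nucleolus, was at 29.8 RPM against 19.9, 23.3 and 27.8 RPM, lower in all 3.

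USP34, a very large protease of Wnt and NF-kB signalling, stood at 78.6 RPM in Control, against 51.5, 60.3 and 44.9 RPM. USP25, which acts on signalling through TRAF proteins, was at 28.98 RPM against 18.9, 17.7 and 11.01 RPM. Both lay below Control in all 3 libraries with no overlap, by -0.59 ± 0.27 and -0.87 ± 0.48 (SE) on the log2 scale, and neither passed (limma-trend adjusted p = 0.993 for both). USP24 was at 23.7 RPM against 21.0, 16.1 and 18.7 RPM, a smaller distance. USP6, which is close in sequence to USP32 and therefore uncertain, lies outside the rule for named genes and was picked after its values were seen because it completes the 10 rows: it was at 17.5 RPM against 16.7, 10.9 and 15.8 RPM.

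USP33, which acts on the receptor Robo1 and on centrosomes, stood at 171 RPM in Control, against 118, 130.1 and 291 RPM. SLEAR shRNA-1 and -2 were lower and SLEAR shRNA-3 far higher than Control. The log2 difference was -0.05 ± 0.58 (SE; limma-trend adjusted p = 0.995) with all libraries and 0.19 without SLEAR shRNA-1. Without SLEAR shRNA-3 it was -0.46, with an adjusted p of 0.368 over all tested rows and 0.0406 in the restricted fit (limma-trend). Of the 5 member rows that passed as lower in the restricted fit, UBE2T, USP37 and USP3 were below Control in SLEAR shRNA-3 as well. USP1 and USP33 were above Control there, and UBE2G1, which passed as higher, did not keep its sign either. Over all rows of that fit, 264 of 352 that passed as lower and 256 of 345 that passed as higher kept their sign in SLEAR shRNA-3.

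USP19, which protects proteins of the endoplasmic reticulum from degradation, was measured in 2 rows. Each has 2 annotated transcript ends in GENCODE 29, and the last ends of the rows lie 625 bases apart. The first row, named outside the rule for the pair, stood at 28.7 RPM in Control, against 27.9, 20.9 and 27.6 RPM, close to Control in all but SLEAR shRNA-2. The second was at 42.5 RPM against 27.5, 28.7 and 18.9 RPM, lower in all 3, with a log2 difference of -0.76 ± 0.38 (SE; limma-trend adjusted p = 0.993). The second row therefore made 59.6% of USP19 reads in Control and 49.6%, 57.9% and 40.6% in SLEAR shRNA-1, -2 and -3. This share was below Control in all 3 libraries, by least in SLEAR shRNA-2.

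Other members fixed by their role were low. UBE2J1 and UBE2J2, E2 enzymes anchored in the endoplasmic reticulum, were at 4.12 RPM or below in every library, and USP15, USP8, USP9X and USP28 at 2.66 RPM or below. USP30, which acts on mitochondria, was at 6.80 RPM against 7.66, 6.51 and 3.95 RPM. None of these passed by limma-trend (adjusted p = 0.993 for each), and UBE2V2 and USP4 entered no test. Of all 91 member rows, 18 entered no test.

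The families also differ in transcript length. In GENCODE 29, matched through RefSeq names for 13 of 15 UBE2 and 18 of 19 USP rows, the median length was 2548 bases for UBE2 and 4463 bases for USP, against 2367 bases over all rows of that level, and the median GC content was 51.3%, 44.6% and 52.1%. The rows of that level were cut into 4 length groups of nearly equal size. The median log2 difference was 0.10, 0.13 and 0.11 in the group of shortest transcripts and -0.12, -0.19 and -0.13 in the group of longest, of 3749 bases or more. That group held 13 of the 18 USP rows and 3 of the 13 UBE2 rows. Its 13 USP rows had medians of -0.48, -0.45 and -0.33, and 8 of them were lower in all 3 libraries, against 37.0% of all 1188 rows of the group. None of the 3 UBE2 rows in it was lower in all 3. The part of length in the difference between the families was not tested.

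**Figure D4:**
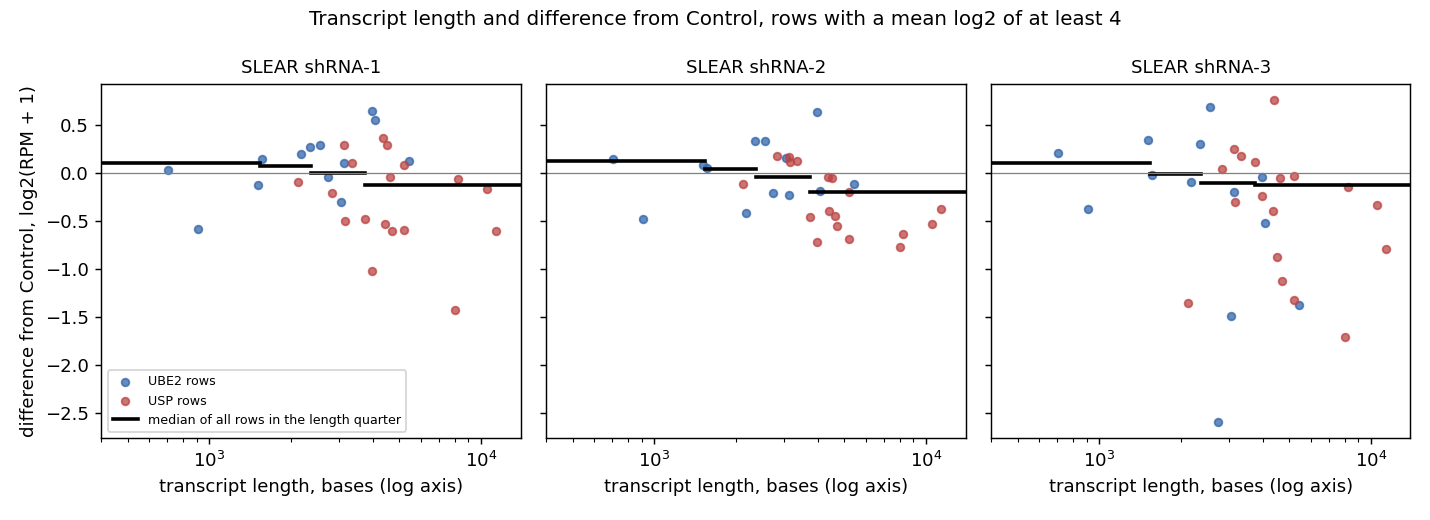
Transcript length in bases (log axis) against the difference from Control in log2(RPM + 1) for each SLEAR shRNA library, with UBE2 rows in blue, USP rows in red and a black bar at the median of all rows in each of 4 length groups. In the group of longest transcripts the bars lie at -0.12, -0.19 and -0.13 and most USP rows lie below them.

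Of the other genes of the ubiquitin system, 0 passed by limma-trend or limma-voom over all libraries, and 0 had an unadjusted p under 0.05 by limma-trend. UBB, which encodes ubiquitin itself, was at 1415 RPM against 1692, 1683 and 1135 RPM. It was above Control in SLEAR shRNA-1 and -2 and below it in SLEAR shRNA-3. The main ubiquitin E1, UBA1, hardly varied, at 249 RPM against 247, 247 and 246 RPM. Among 10 E1 rows tested, 1 was higher and 4 were lower in all 3 libraries (10% and 40%), against 17.8% and 28.6% of all tested rows. UBA3, the catalytic subunit of the NEDD8 E1, was at 40.5 RPM against 25.1, 20.47 and 8.72 RPM, all below Control, and of the E1 rows it alone passed in the restricted fit (adjusted p = 0.0152, limma-trend). Its partner NAE1 was at 134 RPM against 103, 116 and 128 RPM, and NEDD8 itself lay above Control in all 3, at 405 RPM against 517, 525 and 427 RPM.

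Deubiquitinases of other families were set beside the USP rows. The list also held PRPF8, EIF3H, EIF3F and COPS5, which are not typical deubiquitinases. Of 30 rows tested, all 3 SLEAR shRNA libraries lay above Control in 4 and below it in 10 (13.3% and 33.3%), near the 17.8% and 28.6% of all tested rows. Of the 15 with a mean log2 of at least 4, 2 were higher and 3 lower, against 25.0% and 25.6% of all rows at that level. The 2 higher rows were PRPF8 and EIF3F. The medians of those 15 were -0.12, 0.05 and -0.19, beside USP medians of -0.21, -0.38 and -0.24. Those 15 include PRPF8, EIF3F, EIF3H and COPS5, at 0.17, 0.13, 0.20 and 0.19 in SLEAR shRNA-2. Medians without these rows were not computed, so the comparison with USP is limited. YOD1, of the OTU family, stood at 113 RPM in Control, against 100.2, 97.3 and 64.6 RPM, below Control in all 3, and BRCC3, a protease for lysine 63 chains, at 115 RPM against 99.2, 110.2 and 98.5 RPM. PSMD14, the deubiquitinase of the proteasome lid, was at 37.8 RPM against 56.0, 49.3 and 24.5 RPM, on both sides. Of 11 rows of USP partners tested, 1 was higher and 3 lower in all 3 libraries, of 6 rows of E2 genes under other names 0 and 2, and of 8 rows of ubiquitin-like modifiers 2 and 1. The shares over all tested rows were 17.8% higher and 28.6% lower, and the 27.3% of USP partner rows that were lower is near the latter.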

How the data were processed

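Per the submitters' processing notes, FastQC, Bowtie2 and SAMtools were used with the genome build hg19; versions, the assignment of reads to transcript rows and any filter are not given in the sources used here. The authors deposited 1 table of 16328 rows in RPM. Rows that held the same values throughout and averaged 1 RPM or more were treated as 1 row, which removed 177. The worth of 1 read came from the spacing of low values: 96.4% to 96.8% of values above 0 were whole multiples within 0.05 reads, so the values were not treated as counts. A value of 0 allows up to 3 reads, 0.358 RPM in Control, against 0.426, 0.399 and 0.623 RPM in the SLEAR shRNA libraries in order, for counting error only.

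Limma 3.58.1 (limma-trend, R 4.3.3) was fitted to log2(RPM + 1), checked on simulated data first. A difference on this scale understates the change of low rows. Alternatives were pseudocounts of 0.1 and 5 RPM, other filters, median-of-ratios size factors, limma-voom on estimated reads, rows summed by symbol and leaving out each SLEAR shRNA library. Members, lists and tests were chosen with earlier results of these data known.

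Named members were, of each family, up to 8 in each direction with the largest difference among rows with a mean log2 of at least 4 and all 3 SLEAR shRNA libraries on 1 side of Control, those that passed a fit, the 3 highest by level, and others fixed by their role. Of the members fixed by role, those below 1 RPM in every library entered no test, and UBE2E1 is not analysed here. Single values of a few other genes are not reported here, 1 UBE2 row among them, which still counts in its family. Length, GC content and transcript ends came from GENCODE 29 (GRCh38) and were used without coordinates, since the table is of hg19.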

Additional observations from a re-analysis of the deposited data

How the results depend on the processing

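No paired analysis was possible because the 1 Control library has no number that it shares with the SLEAR shRNA libraries. With 1 Control, every difference also rests on that library, and its own spread is unknown. Without a filter, limma-trend called 377 rows (1 higher, 376 lower), of which 1 was a member row; the cause was not tested. Leaving out SLEAR shRNA-3 alone, or keeping only rows with a mean log2 of at least 4 alone, it called 0 rows. With both changes together it called 697 rows (345 higher, 352 lower) and 6 member rows (1 higher, 5 lower). The UBE2 median minus the USP median, 0.12 over all tested rows, was 0.39 in that fit (n = 2), and it was above 0 in every alternative run. Its SD was often larger than the value, as at 0.08 ± 0.31 without SLEAR shRNA-1 and 0.03 ± 0.25 without SLEAR shRNA-2 (SD, n = 2 each). The mean USP median, -0.23, was -0.16 with a pseudocount of 5 RPM and -0.12 without a filter, and the cause was not tested. Leaving out 1 SLEAR shRNA library at a time gave 0.03 to 0.25 for the UBE2 median minus the USP median, -0.21 to 0.05 for the UBE2 median and -0.26 to -0.20 for the USP median. The UBE2 median was above 0 without SLEAR shRNA-3 and below 0 with it, except among rows with a mean log2 of at least 4, where it was 0.04 with all libraries.

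Counts of rows on 1 side of Control were varied after the data were seen. The 10 of 19 USP rows that were lower numbered 10 with size factors and 9 of 18 with rows summed by symbol, and ran from 11 to 13 when a SLEAR shRNA library was left out. The 3 UBE2 rows that were higher ran from 3 to 6, and the 2 that were lower from 2 to 6, when a library was left out, and 1 of 12 was lower without the pseudogene and readthrough rows. The 2 USP rows that were higher ran from 2 to 3. Of 43 named rows tested, 15 changed sign under at least 1 alternative, and none of these sign changes involved a value past the threshold.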

Other observations

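Several enzymes that proliferating cells are known to use were listed at or near 0 in every library. USP14, a deubiquitinase of the proteasome, UBE2G2, an E2 of the endoplasmic reticulum, and USP43 were at 0 in all 4 libraries. UBE2B, the close relative of UBE2A, was at 0, 0.851, 0.797 and 0 RPM in Control and SLEAR shRNA-1, -2 and -3, and UBE2D1 at 0.239, 0.142, 0 and 0 RPM. USP4 was at 0, 0.142, 0.266 and 0 RPM and USP9X at 1.19, 1.99, 0.797 and 0 RPM. In all, 10 UBE2 and 8 USP rows stayed under 1 RPM in every library. A 0 in this table can be a failed assignment of reads, so these values say only how the table lists the genes.

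Some low members were far higher in SLEAR shRNA-3 than in the other libraries. USP27X and USP51, relatives of USP22 in histone deubiquitination, were at 4.77 and 5.84 RPM in Control, at 2.98 and 2.41 RPM in SLEAR shRNA-1, at 3.32 and 2.92 RPM in SLEAR shRNA-2, and at 15.4 and 10.4 RPM in SLEAR shRNA-3. UBE2Q2 was at 6.32, 6.81, 7.71 and 28.2 RPM in the same order, and the E1-like MOCS3 at 0, 1.70, 1.46 and 14.3 RPM. In the other direction, USP32 was at 15.7, 14.5, 9.17 and 0 RPM and USP10, which acts on p53, at 8.71, 9.79, 11.7 and 1.25 RPM. USP46 was at 2.15 RPM in Control and 0 in all 3 SLEAR shRNA libraries. These rows were picked after their values were seen.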
